A study of Homo sapiens with 8 samples.

Results

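The claudin genes compared were the pore-forming CLDN2, CLDN12, CLDN15 and CLDN16 and the sealing or mixed CLDN1, CLDN3, CLDN4, CLDN5, CLDN7 and CLDN8. The members were the table rows to which the platform annotation gives 1 of these 10 symbols, and they made up 14 of the 44290 features of the array and 10 of the 18014 named genes. Caco-2, an established cell line from a human colorectal adenocarcinoma whose cells polarise in culture, was grown for 18 days to differentiate. The monolayers then spent 10 h either in M199 with non-essential amino acids (control) or in the same medium holding L. plantarum MB452, a Lactobacillus strain, at an optical density of 0.9. RNA of 3 wells was mixed into a pool, giving pools A and B in both groups, and a pool was run in Cy5 on its own slide against a Cy3 reference. The protocol describes that reference as a mix of all wells, whereas the short channel name in the labels calls it a control reference on control slides and an MB452 reference on MB452 slides. Every difference between the groups given here assumes 1 common reference, and with a reference of its own in each group the ratios would not compare MB452 with control. Each slide was scanned at a high and a low photomultiplier voltage. Pools of wells from 1 cell line at 1 time measure the spread between these pools and no other variation, and pool and slide cannot be told apart.

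Claudins are membrane proteins that bridge the space between neighbouring epithelial cells and assemble into the strands of the tight junction. Some of them, such as claudin-2 and claudin-15, line channels that let small cations and water pass between cells, while others tighten the strand against ions and solutes. The balance between these kinds sets much of the electrical resistance of a leaky epithelium such as that of the small intestine, and several claudins act as a seal in one tissue and as an ion channel in another. The assignment of CLDN4, CLDN7 and CLDN8 to 1 kind therefore depends on the cell, and CLDN12 and CLDN16 are pore claudins mainly by their part in calcium and magnesium transport.

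No claudin of either class changed past the threshold of the study, a fold change over 1.2 with an unadjusted moderated p under 0.05. The count was 0 of 4 pore claudins and 0 of 6 sealing or mixed claudins, beside 1.91% of all genes (1.04% higher and 0.868% lower). It was 0 of their 14 features, beside 2.1% of all features (1.3% higher and 0.8% lower). At an unadjusted p under 0.05 in limma without a fold minimum, 1 of the 10 genes (CLDN7) and 2 of the 14 features (CLDN7 and 1 feature of CLDN3) were below 0.05, beside 6.49% of all genes and 5.5% of all features. The pools of the groups did not overlap for 3 of the 10 genes, CLDN15, CLDN3 and CLDN7, beside 37.1% of all 17969 genes tested, so this share was near that of all genes. Values are log2 ratios of pool over reference, with the median of each column set to 0 and the scans of a slide averaged, and log2 fold changes are MB452 minus control. No source used here states the base of these logarithms, and it was taken as 2, the base that limma writes. A ratio to the reference holds no level, so the claudins could not be ranked by abundance and the epithelial identity of the cells could not be checked from marker levels.

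**Figure D1:**
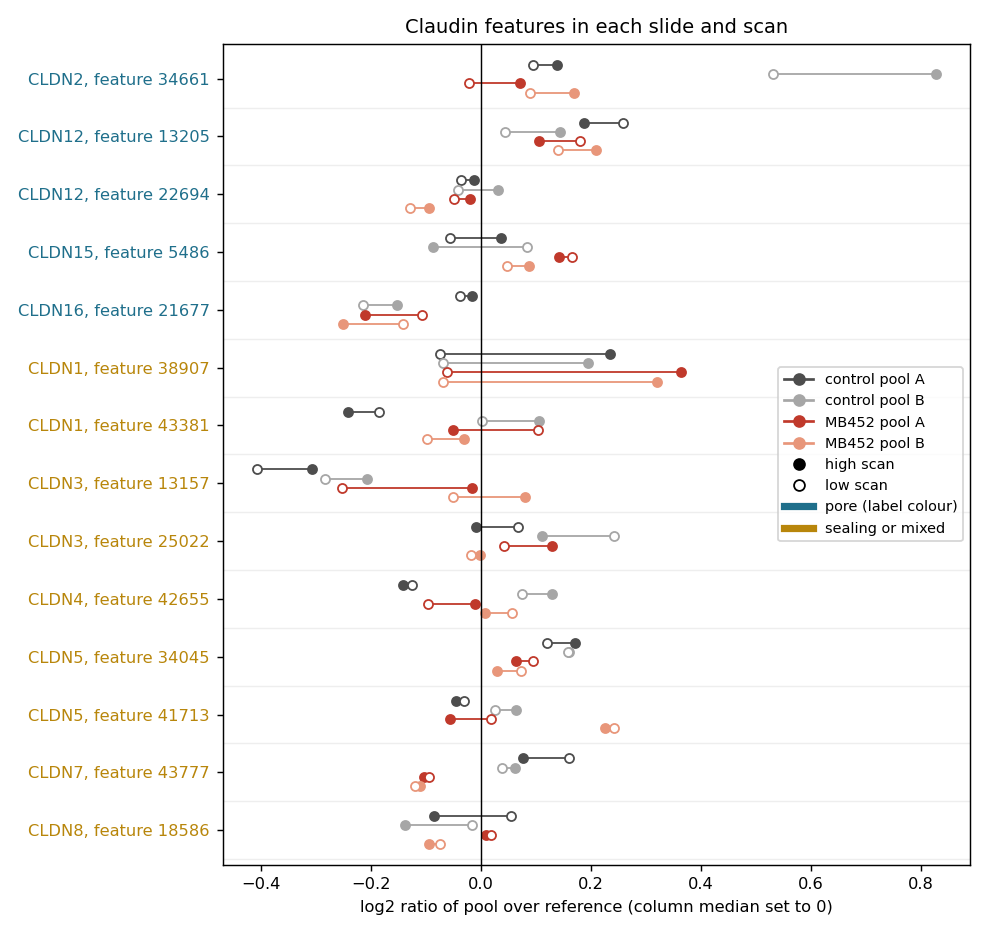
Log2 ratio of pool over reference for each of the 14 claudin features (1 on each line, names of pore claudins in blue and of sealing or mixed claudins in ochre) in control pools A and B (dark and light grey) and MB452 pools A and B (red and orange), with filled points for the high scan joined to open points for the low scan. CLDN2 stands at 0.83 and 0.53 in control pool B and at 0.17 or below elsewhere, and CLDN7 is below 0 in both MB452 pools and above 0 in both control pools.

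CLDN2 had the largest difference of the 10 genes, and it rested on 1 control pool. Claudin-2 is the classical channel for sodium and water in leaky epithelia and is associated with low resistance. Its log2 ratio was 0.12 in control pool A, 0.68 in control pool B, 0.024 in MB452 pool A and 0.13 in MB452 pool B. Control pool B stood above the other 3 pools, among which control pool A lay between the MB452 pools. High scan values were 0.14 and 0.83 in control pools A and B and 0.071 and 0.17 in MB452 pools A and B. Low scan values were 0.094 and 0.53 in the control pools and -0.022 and 0.089 in the MB452 pools. Control pool B was the highest in both scans, and in the low scan the groups did not overlap, with control pool A at 0.094 and MB452 pool B at 0.089.

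The log2 fold change of CLDN2 was -0.32 (standard error 0.19, 95% interval -0.79 to 0.15, adjusted p = 0.809 from limma). Its size was at or above that of 97.9% of all genes, but so was the gap between the 2 control pools, 0.56, which was at or above that of 98.1% of all genes. With control pool B left out it was -0.039 (adjusted p = 0.977 from limma). With control pool A left out it was -0.60 (adjusted p = 0.0127 from limma) and passed the threshold, in a fit that takes the lone control pool to vary like the MB452 pools and in which 743 of 17974 genes had an adjusted p under 0.05. With the replicate letter as a block it also passed, at -0.32 (unadjusted p = 0.0419 and adjusted p = 0.833 from limma).

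Other values moved with the single high pool. Control pool B had the widest spread of ratios over all features, with standard deviations of 0.222 (high scan) and 0.216 (low scan) against 0.134 to 0.19 in the other columns. CDX2, the gene for an intestinal transcription factor known to activate CLDN2, was at 0.44 in control pool B and at -0.091, -0.12 and -0.016 in control pool A, MB452 pool A and MB452 pool B. It was named after its values were seen, and its difference between the groups, -0.24 on the log2 scale with a standard error of 0.18, did not pass (adjusted p = 0.819 from limma). Of the other measured regulators of claudin transcription, STAT3 (0.15) was also highest in control pool B. GRHL2 was nearly level in control pools A (0.071) and B (0.073). CDX1 (-0.15), GATA6 (0.11), VDR (-0.12) and SNAI2 (-0.084) were lowest in control pool B. Of 13 markers measured for fibroblasts, blood cells, endothelium and goblet cells, 6 were highest in control pool B, 3 in control pool A, 3 in MB452 pool A and 1 in MB452 pool B, and their median ratio lay between -0.028 and -0.014 in all 4 pools. The markers that stood out in control pool B were CD3E of T cells (0.34, against -0.052 to 0.014 elsewhere), VIM of fibroblasts (0.30, against -0.076 to -0.044) and CDH5 of endothelium (0.30, against 0.0086 to 0.10). The other markers of fibroblasts and blood cells were not highest there. COL3A1 (-0.11) and COL1A1 (-0.028) of fibroblasts and VWF of endothelium (-0.057) were lowest there. The median of the 10 enterocyte markers measured, CDX2 among them, lay between -0.056 and 0.0055 in the 4 pools. The part of these differences in the CLDN2 value was not tested.

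Of the promoter entries in RefSeq for GRCh38.p14, 8 of the 10 claudins could be matched, with 11 start sites. In the 250 bases before each start, the letters TTTAT or, on the other strand, ATAAA, a short core that CDX factors bind, were found at a start site of CLDN2 and at 1 of CLDN16, and 32.7% of all 35116 promoter entries of that length held them. The CLDN2 entry at chrX:106899914-106900163 on the plus strand is printed because CLDN2 and CDX2 were both high in control pool B, with the match in capitals. A match of letters is no evidence of binding.
CLDN2 promoter: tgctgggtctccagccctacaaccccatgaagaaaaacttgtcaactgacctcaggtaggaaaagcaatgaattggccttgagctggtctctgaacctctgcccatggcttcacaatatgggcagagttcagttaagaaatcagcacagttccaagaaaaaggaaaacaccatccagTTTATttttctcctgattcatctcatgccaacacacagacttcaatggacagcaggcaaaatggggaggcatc

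CLDN15 was the pore claudin with the highest log2 fold change. Claudin-15 forms sodium channels that are needed for nutrient uptake in the small intestine of mice. Its log2 ratio was -0.010 and -0.0023 in control pools A and B and 0.15 and 0.066 in MB452 pools A and B. Both MB452 pools were above both control pools in the mean of the scans and in the high scan, and they overlapped in the low scan, where control pool B was at 0.083 and MB452 pool B at 0.047. The log2 fold change was 0.12 (standard error 0.060, 95% interval -0.036 to 0.27, adjusted p = 0.807 from limma), with 0.14 from high scans and 0.092 from low scans. With each pool left out in turn it lay between 0.073 and 0.16. As the pools did not overlap in the mean of the scans, these omissions could not turn its direction.

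For CLDN12 and CLDN16 the pools of the groups overlapped in the mean over features and scans. Claudin-12 has been linked to calcium passage in the intestine, and claudin-16 to magnesium and calcium recovery in the kidney. The log2 ratio of CLDN12 was 0.099 and 0.043 in the control pools and 0.053 and 0.031 in the MB452 pools, a difference of -0.029 on the log2 scale (standard error 0.057, adjusted p = 0.923 from limma). Its features lay at different ratios, feature 13205 above 0 in all 8 columns and feature 22694 below 0 in 7 of them, with log2 fold changes of 7.16e-04 and -0.059. For feature 22694 both MB452 pools were below both control pools in both scans. With 1 pool left out the gene lay between -0.057 (without control pool B) and -0.0013. CLDN16 had -0.027 and -0.18 in control pools A and B and -0.16 and -0.20 in MB452 pools A and B, so that control pool A stood apart from the other 3. Its log2 fold change was -0.072 (standard error 0.073, adjusted p = 0.839 from limma), with -0.15 from high scans and 0.0014 from low scans. In the high scan the groups did not overlap, with control pool B at -0.15 and MB452 pool A at -0.21.

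Among the sealing or mixed claudins, CLDN7 was lower in both MB452 pools in every scan. Claudin-7 lies along the whole lateral membrane of intestinal cells and binds the adhesion protein EpCAM. Its log2 ratio was 0.12 and 0.050 in control pools A and B and -0.099 and -0.12 in MB452 pools A and B. In the high scan the values were 0.076 and 0.062 in the control pools and -0.10 and -0.11 in the MB452 pools. In the low scan they were 0.16 and 0.038 against -0.095 and -0.12. The groups were apart in both scans, and the MB452 pools differed from each other by less (0.017) than the control pools did (0.067).

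The log2 fold change of CLDN7 was -0.19 (standard error 0.058, 95% interval -0.34 to -0.045, unadjusted p = 0.0196 and adjusted p = 0.697 from limma), which is 0.876 of the control level and short of the fold minimum of 1.2. High scans alone gave -0.18 and low scans -0.21. With 1 pool left out it lay between -0.23 and -0.16, and as the pools did not overlap its sign could not turn there. Over all 14 alternative settings run for the gene it stayed between these values and below 0, with an adjusted p between 0.22 and 0.999 in limma, and it passed the threshold in none of them. CLDN7 has 1 feature on the array, so no other feature bears on it.

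CLDN7 was also the only matched claudin whose promoter held the E-box CAGGTG, or CACCTG on the other strand, the core bound by Snail and ZEB repressors of epithelial genes. It was found 4 times in the 250 bases before 1 of the 2 start sites, at -174, -135, -20 and -9 counted to the first base of each match from the start, and not before the other. At least 1 such match was in 17.5% of all promoter entries and 4 or more in 0.122%. The search was made with the values of CLDN7 known, and it also covered the CDX core and the GC box (GGGCGG or CCGCCC). The GC box was found before at least 1 start site for 6 of the 8 matched claudins. Another start site of CLDN7 and of CLDN16 lacked it. Of all promoter entries 42.6% held it, a share counted by entry and not by gene, so the count and the share are not alike. CLDN3 had it 4 times, beside 7.63% of entries with 4 or more. The CLDN7 entry, at chr17:7262479-7262728 on the minus strand, is printed because it carries the 4 E-box matches, in capitals.
CLDN7 promoter: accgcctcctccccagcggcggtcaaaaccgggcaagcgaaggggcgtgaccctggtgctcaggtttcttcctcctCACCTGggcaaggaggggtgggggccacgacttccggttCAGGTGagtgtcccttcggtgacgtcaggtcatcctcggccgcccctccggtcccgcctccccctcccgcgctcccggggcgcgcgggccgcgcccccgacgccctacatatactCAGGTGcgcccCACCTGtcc

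SNAI1, which encodes Snail, passed the threshold of the study at 0.30 (standard error 0.098, adjusted p = 0.716 from limma), with -0.36 and -0.12 in control pools A and B and 0.0063 and 0.12 in MB452 pools A and B. SNAI2, ZEB1 and ZEB2, which encode factors that bind the same core, had log2 fold changes of 0.031, -0.0079 and -0.034. The paper describes Snail as a repressor of occludin and of claudins. The log2 fold change of OCLN, the gene for occludin, was 0.52, and of the 10 claudins 6 had a positive and 4 a negative value. These values stand side by side, and whether the factors act on CLDN7 was not tested.

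The features of CLDN3 disagreed. Claudin-3 is a sealing claudin of the intestinal epithelium. Feature 13157 had -0.36 and -0.25 in control pools A and B and -0.13 and 0.014 in MB452 pools A and B, and its MB452 pools were above its control pools in both scans. Its log2 fold change was 0.24 (standard error 0.083, 95% interval 0.031 to 0.45, unadjusted p = 0.032 and adjusted p = 0.871 from limma), with 0.29 in the high scan, where it passed the threshold, and 0.19 in the low scan. With 1 pool left out it passed without control pool B, at 0.30, and without MB452 pool A, at 0.32, but not without control pool A, at 0.19, or without MB452 pool B, at 0.17. Feature 25022 had 0.029 and 0.18 in the control pools and 0.084 and -0.011 in the MB452 pools, a log2 difference of -0.066 between the groups (standard error 0.080). Both carry the same transcript accession, and their probe positions were not analysed here. The mean over both was 0.088 (standard error 0.067, adjusted p = 0.822 from limma), with 0.023 when control pool A was left out and 0.15 when control pool B was.

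CLDN1 showed how far a scan can move a claudin ratio. Claudin-1 is needed for the water barrier of skin and seals tight junctions in many epithelia. Feature 38907 had 0.23, 0.19, 0.36 and 0.32 in the high scan of control pools A and B and MB452 pools A and B, but -0.074, -0.069, -0.062 and -0.069 in the low scan. The high scan was above the low scan by 0.26 to 0.43 on all 4 slides, and 1.03% of the 42045 features with values in all 8 columns had a gap of at least 0.26 on every slide. The log2 fold change of this feature was 0.13 from high scans and 0.0062 from low scans. Feature 43381 had -0.21 and 0.053 in the control pools and 0.026 and -0.065 in the MB452 pools, a log2 difference of 0.061 between the groups (standard error 0.11). For the gene it was 0.064 (standard error 0.068, adjusted p = 0.847 from limma), with 0.0015 when control pool A was left out and 0.13 when control pool B was.

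CLDN4, CLDN5 and CLDN8 had the smallest differences of the 10 genes. Claudin-4 and claudin-8 restrict sodium in the distal nephron, and claudin-5 is the main claudin of blood vessel walls. CLDN4 had -0.13 and 0.10 in control pools A and B and -0.054 and 0.031 in MB452 pools A and B, so that both MB452 pools lay between the control pools. Its log2 fold change was 0.0049 (standard error 0.094, 95% interval -0.23 to 0.24), with -0.11 when control pool A was left out and 0.12 when control pool B was. CLDN5 had 0.053 and 0.10 in the control pools and 0.030 and 0.14 in the MB452 pools, with 0.0085 (standard error 0.065, 95% interval -0.16 to 0.17). Its feature 34045 had -0.087, with both MB452 pools below both control pools in both scans. Its feature 41713 had 0.10, and there MB452 pool B alone was high, at 0.23 against -0.039 to 0.044. CLDN8 had -0.016 and -0.078 in the control pools and 0.013 and -0.085 in the MB452 pools, with 0.011 (standard error 0.064, 95% interval -0.15 to 0.17).

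**Figure D2:**
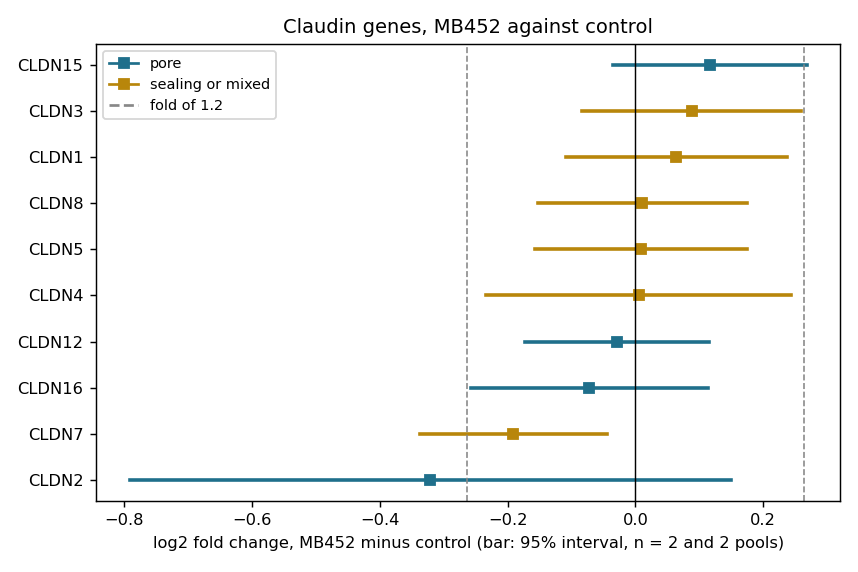
Log2 fold change, MB452 minus control, of the 10 claudin genes with 95% intervals from limma (n = 2 pools in each group), coloured by class, with dashed lines at a fold of 1.2. The intervals of 9 genes cross 0, that of CLDN7 (-0.34 to -0.045) does not, and that of CLDN2 is the widest.

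In order of log2 fold change the genes were CLDN15, CLDN3, CLDN1, CLDN8, CLDN5, CLDN4, CLDN12, CLDN16, CLDN7 and CLDN2. Neighbours in that order from CLDN15 down to CLDN16 differed by 0.0022 to 0.053, less than the smaller of their standard errors. The gaps from CLDN16 to CLDN7 (0.12) and from CLDN7 to CLDN2 (0.13) were larger than the smaller standard error, 0.058 in both cases, but the second was below the standard error of CLDN2. The 95% interval lay within a 1.2-fold difference in either direction (0.263 on the log2 scale) for all but CLDN2, CLDN7 and CLDN15. The intervals of CLDN2 and CLDN7 reached down to 0.578 and 0.791 of the control level, and that of CLDN15 reached up to 0.268 on the log2 scale. None of the 14 features had, in any scan, the single repeated value that many features of a column share and that was taken to mark saturated spots.

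The difference between the classes was -0.074 with all members and 0.0074 without CLDN2, an omission chosen after seeing the data. CLDN7, the lowest of the sealing or mixed claudins, was kept in that setting. The 4 pore claudins had log2 fold changes from -0.32 to 0.12, with 1 of 4 positive, a mean of -0.077 and a median of -0.051. The 6 sealing or mixed claudins ranged from -0.19 to 0.088, with 5 of 6 positive, a mean of -0.0025 and a median of 0.0096. Over all genes 45.4% were positive and the median was -0.0093. The class means are averages over chosen genes and carry no p. Leaving out control pool A took the pore mean to -0.12 and the sealing or mixed mean to -0.037, and leaving out control pool B took them to -0.032 and 0.032, so the sign of the sealing or mixed mean turned with the control pool.

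Within each slide, the mean ratio of the pore claudins minus that of the sealing or mixed claudins was 0.079 in control pool A, 0.10 in control pool B, 0.026 in MB452 pool A and 0.0068 in MB452 pool B. Both MB452 pools were thus below both control pools, and the difference between the groups was -0.074. In the low scan the groups overlapped, with 0.056 and 0.078 in the control pools and 0.059 and 0.017 in the MB452 pools. Without CLDN2, a setting chosen after seeing the data, the slide values were 0.056 and -0.081 in the control pools and 0.023 and -0.034 in the MB452 pools. The MB452 pools then lay between the control pools, and the difference between the groups was 0.0074. With narrow classes, CLDN2 and CLDN15 against CLDN1, CLDN3 and CLDN5, it was -0.16.

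**Figure D3:**
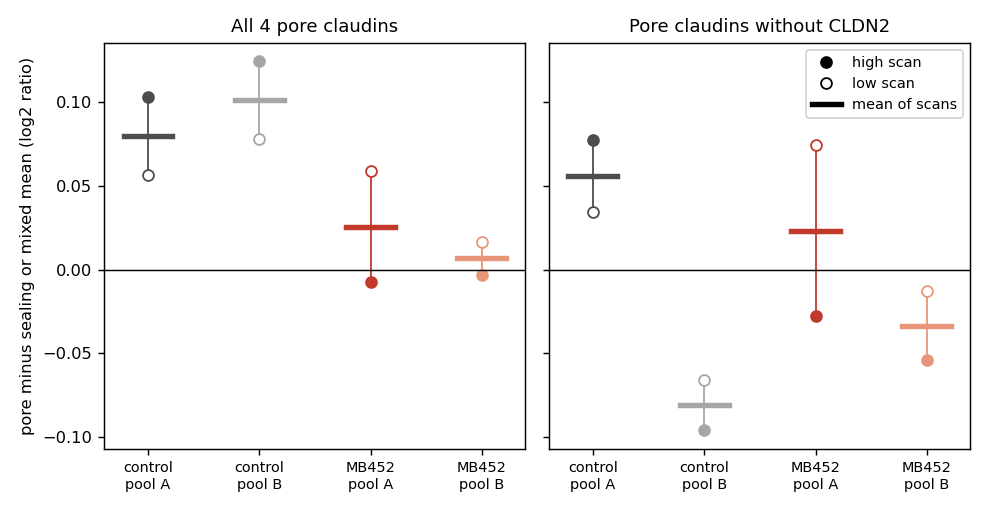
Mean log2 ratio of the pore claudins minus that of the sealing or mixed claudins in each slide, for the high scan (filled), the low scan (open) and their mean (bar), with all 4 pore claudins (left) and without CLDN2 (right). With CLDN2 the MB452 pools, at 0.026 and 0.0068, are below the control pools, and without it they lie between control pools at 0.056 and -0.081.

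Among the 10 claudins are 2 pairs of adjacent protein-coding genes on the GRCh38.p14 assembly. CLDN3 and CLDN4 lie next to each other on chromosome 7, and CLDN16 and CLDN1 on chromosome 3. CLDN3 was lowest in control pool A (-0.16) and highest in MB452 pool B (0.0019), while CLDN4 was lowest in control pool A (-0.13) and highest in control pool B (0.10). CLDN1 was lowest in control pool A (-0.067), the pool in which CLDN16 was highest (-0.027). The composition of the promoters overlapped between the classes. G and C made up 40% to 64.8% at the 6 start sites of pore claudins and 58.8% to 71.6% at the 5 of sealing or mixed claudins. The latter lack CLDN5 and CLDN8, which had no matched entry.

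Of 13 other claudins listed, 10 were measured and 0 passed the threshold, with log2 fold changes from -0.061 to 0.070. Counts in this and the next lists stand beside 1.91% of all genes past the threshold (1.04% higher) and 6.49% at an unadjusted p under 0.05 in limma. Of 7 other strand proteins measured 1 was higher, OCLN, the gene for occludin (0.52, adjusted p = 0.637 from limma), and of 12 plaque and claudin-binding proteins 1 was higher, TJP1, the gene for ZO-1 (0.35, adjusted p = 0.637 from limma), which anchors claudins to actin. Of the plaque and claudin-binding proteins, 4 of 12 had an unadjusted p under 0.05 in limma, TJP1, CGN, PALS1 and CGNL1, with log2 fold changes of 0.35, 0.19, 0.16 and 0.26 and adjusted p between 0.637 and 0.740. The median log2 fold changes of these lists were 0.036 and 0.081. Among 10 partners and modifiers of claudins 0 passed, and among 13 regulators of claudin transcription 1 was higher, SNAI1. EPCAM, CDH1, the gene for E-cadherin, and ILDR1 had that repeated value in every column and were left out of the counts. No enterocyte, fibroblast, blood, endothelial or goblet cell marker passed. Over all genes 0 had an adjusted p under 0.05 in limma, where 1166 had an unadjusted p under 0.05.

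**Figure D4:**
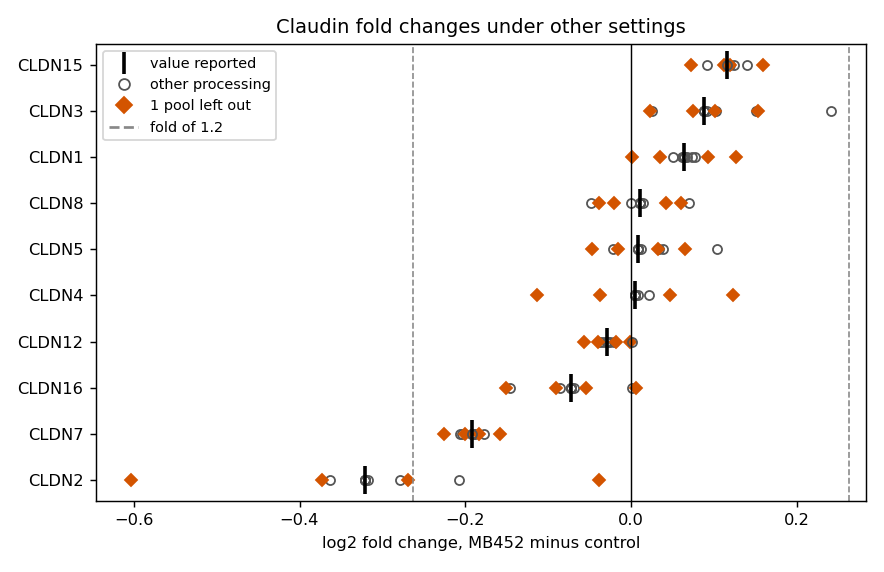
Log2 fold change of each claudin gene as reported (bar), under other processing (open circles) and with 1 pool left out (diamonds), with dashed lines at a fold of 1.2. CLDN1, CLDN2, CLDN3, CLDN7 and CLDN15 keep their side of 0 in all 14 settings shown, and CLDN2 ranges from -0.60 (control pool A left out) to -0.039 (control pool B left out). For CLDN3, CLDN7 and CLDN15, whose pools do not overlap between the groups, leaving out 1 pool could not turn the sign.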

How the data were processed

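Scans were quantified by the authors in GenePix. Poor spots were discarded after a look at the images, background was not subtracted, and loess in limma (version not given in the sources used here) normalized each array. For the study's own tests the authors merged the scans of a slide through their intensities, which were not used here. The deposited table instead holds the log2 ratio of Cy5 (pool) to Cy3 (reference) for every scan, and all 8 columns entered.

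In limma 3.58.1 under R 4.3.3, columns were centred on their medians and the scans of a slide averaged. A fit (lmFit, eBayes) without covariates covered 42142 features present on all 4 slides, MB452 minus control. Symbols came from the platform annotation. For 28992 of 29033 features the RefSeq symbol (GRCh38.p14) of the same gene identifier was used, whether or not it differed. Features of 1 gene were averaged. Benjamini-Hochberg adjustment ran over all features or all 17969 genes. Named genes are the 10 members and listed genes past the threshold. CDX2, CD3E, VIM, CDH5, COL3A1, COL1A1, VWF, CGN, PALS1, CGNL1, EPCAM, CDH1 and ILDR1 fall outside that rule. So do SNAI2, ZEB1, ZEB2, STAT3, GRHL2, CDX1, GATA6 and VDR. The values of all of these were known when they were chosen. The members and lists were chosen with earlier results of these data known. The fit was tested on simulated data drawn from the variance model that it assumes, which cannot show how well that model holds here. The signal behind each ratio is unknown, and 2 pools in each group limit the precision.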

Additional observations from a re-analysis of the deposited data

How the results depend on the processing

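The count of claudin genes past the threshold was 0 and rose to 1 with no fold minimum (CLDN7), with the replicate block (CLDN2) and at most with 1 pool left out, where it ranged from 0 to 1. The count of features was 0, and 1 with the high scan only, 2 with no fold minimum and 0 to 1 with 1 pool left out. The pore minus sealing difference of -0.074 was -0.12 with the high scan only, -0.029 with the low scan only, -0.055 with quantile scaling, -0.11 with the most variable feature of a gene, -0.16 with narrow classes and 0.0074 without CLDN2, and lay between -0.085 and -0.063 with 1 pool left out. The pore class mean of -0.077 was 0.0049 without CLDN2 and lay between -0.12 (control pool A left out) and -0.032 (control pool B left out). The mean of the sealing or mixed class, -0.0025, was 0.039 with the most variable feature and 0.054 with narrow classes, and lay between -0.037 and 0.032 under the same omissions. Signs turned for the following genes and features. With the high scan only, CLDN5 had -0.022, feature 13205 of CLDN12 -0.0081 and feature 25022 of CLDN3 0.012. With the low scan only, CLDN16 had 0.0014 and CLDN8 -0.048. With quantile scaling, CLDN8 had -2.94e-04 and feature 13205 of CLDN12 -0.0066, and with the most variable feature CLDN12 had 7.16e-04. With 1 pool left out, CLDN16 lay between -0.15 and 0.0066, CLDN4 between -0.11 and 0.12, CLDN5 between -0.048 and 0.065, CLDN8 between -0.038 and 0.060, feature 43381 of CLDN1 between -0.072 and 0.20, feature 13205 of CLDN12 between -0.064 and 0.065, feature 25022 of CLDN3 between -0.14 and 0.0079 and feature 41713 of CLDN5 between -0.022 and 0.23. The causes of these shifts were not tested.

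Over all genes the count past the threshold was 343, and it was 583 with the most variable feature and between 376 and 1685 with 1 pool left out, the highest without control pool A. The pore class without CLDN2 was a setting chosen after seeing the data.

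The letters A and B are shared by the groups, and the labels and the paper do not say whether they pair the pools. The differences between pools B and A correlated at -0.016 between the groups over 42142 features (2 pairs). This cannot show whether pools with the same letter share an effect on single genes. The settings without saturated values, with a value in all 8 columns, with slides as random blocks, without centring and with a trend in the variance changed no call and no sign of a claudin gene.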
